A study of Mus musculus with 8 samples.

Results

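The neuropeptide genes of telencephalic interneurons and striatal neurons, Sst, Npy, Tac1, Penk, Pdyn, Vip, Cck and Cort, were examined together with Nos1, the neuronal nitric oxide synthase gene. They were followed in mouse telencephalon carrying Dlx1/2 mutations. Every probe set that the platform annotation assigns to only 1 of these 9 genes was taken, which gave 13 of 45037 non-control probe sets and 9 of 18193 annotated genes. The assignment of probe sets to genes used the annotation and no measured value, whereas the genes themselves were picked with earlier results of these data known. RNA came from basal ganglia (BG) or cortex (Ctx) of Dlx1/2 -/- or +/- animals, in 4 groups: BG -/-, BG +/-, Ctx -/- and Ctx +/-, with 2 arrays each, numbered replicate 2 and replicate 3. The controls were thus heterozygous and not wild type, and the labels give no age, no strain and no animal of origin for an array. Separate animals per array are therefore not established, and the spread behind each p-value may be technical.

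Neuropeptides are made as larger precursors, cut in the secretory pathway by prohormone convertases, stored in dense-core vesicles and released to act on G protein-coupled receptors. In the telencephalon, somatostatin (Sst) and neuropeptide Y (Npy) mark GABA-producing interneurons, a subset of which also makes nitric oxide through Nos1. Striatal projection neurons make substance P (from Tac1) and dynorphins (from Pdyn), or enkephalins (from Penk). Many cortical interneurons of mice arise in the ganglionic eminences of the ventral telencephalon and migrate into the cortex, and Dlx1 and Dlx2 encode homeodomain transcription factors of those eminences.

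Both deleted genes checked the genotype labels. Dlx1 signal was 3.67 and 15.5 signal units in the BG -/- arrays, against 1232 and 1237 in BG +/-, and 2.42 and 1.74 in Ctx -/-, against 138 and 137 in Ctx +/-. Dlx2 was at 8.56 and 8.68 in BG -/-, against 358 and 287 in BG +/-, and at 12.01 and 6.69 in Ctx -/-, against 55.3 and 55.3 in Ctx +/-. Where these probes lie relative to the deleted sequence was not examined here. The dissections differed in the direction of their labels: the summed signal of 13 striatal projection neuron markers was 6537 to 10786 in BG arrays and 4476 to 4973 in Ctx arrays, and that of 11 cortical glutamatergic markers was 2814 to 3523 in BG and 11384 to 12009 in Ctx. The source field of the labels mentions blood and adrenal medulla as well. The adrenal enzyme genes Dbh and Pnmt were no higher than 97.2 signal units in any array, beside array medians of 38.0 to 51.6. Brighter genes of the same list were Chga, at 162 to 261, and Chgb, at 267 to 454. The 8 adrenal medulla markers summed to 641 to 989, with none of the 7 tested past the threshold between genotypes. Between regions 2 of the 7 were higher in BG, Ddc and Chgb in -/- and Ddc and Pnmt in +/-. Over all probe sets, 17.2% passed between regions in -/- and 23.8% in +/-, so this count does not set the adrenal list apart. Red blood cell markers summed to 3118 to 6256 in BG and 1427 to 2243 in Ctx, mostly from Hbb-y. In each genotype 3 of 4 tested were higher in BG. The part of red blood cells in the regional differences of the peptide genes was not tested. All -/- arrays also differed from all +/- arrays in sex: Xist was at 2340 to 2519 in the 4 -/- arrays and at 34.2 to 67.5 in the 4 +/- arrays, so sex and genotype cannot be told apart.

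Promoter windows of RefSeq (GRCm38.p6), from 250 bases before an annotated transcript start to 50 bases after it, were found for 8 of the 9 genes. None was found for Penk. Those of Sst and Npy, the genes whose genotype effect differed between the regions, and of Tac1, which had a large difference between regions, are shown 5′ to 3′ on the gene's strand. Capitals mark a match to TGACGTCA, the cyclic AMP response element, or to TAATTA, a core that many homeodomain proteins bind. Both motifs read the same on both strands and do not overlap each other here.
Sst, chr16:23890795-23891094, minus strand: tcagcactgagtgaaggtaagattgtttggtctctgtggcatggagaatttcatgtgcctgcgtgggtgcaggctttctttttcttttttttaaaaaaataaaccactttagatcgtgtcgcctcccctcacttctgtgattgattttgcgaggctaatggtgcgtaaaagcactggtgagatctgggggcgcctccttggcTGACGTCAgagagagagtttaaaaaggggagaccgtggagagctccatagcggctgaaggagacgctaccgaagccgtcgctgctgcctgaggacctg
Npy, chr6:49822460-49822759, plus strand: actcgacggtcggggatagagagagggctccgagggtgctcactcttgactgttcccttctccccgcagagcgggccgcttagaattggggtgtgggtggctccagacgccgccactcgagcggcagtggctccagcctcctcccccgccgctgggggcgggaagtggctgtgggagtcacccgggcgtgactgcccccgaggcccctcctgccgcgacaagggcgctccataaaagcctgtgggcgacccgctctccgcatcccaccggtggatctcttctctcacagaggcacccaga
Tac1, chr6:7554811-7555110, plus strand: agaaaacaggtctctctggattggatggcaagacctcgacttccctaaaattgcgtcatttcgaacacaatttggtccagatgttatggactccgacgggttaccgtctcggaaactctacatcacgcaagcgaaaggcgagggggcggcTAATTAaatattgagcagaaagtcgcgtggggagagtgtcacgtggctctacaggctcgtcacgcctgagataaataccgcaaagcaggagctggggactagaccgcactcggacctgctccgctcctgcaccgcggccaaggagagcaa

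The element in the Sst window lies at bases -48 to -41 from the start, and 1.80% of 32544 windows of this length held it. The homeodomain core in the Tac1 window lies at bases -100 to -95. The Cort window also held that core, at bases -85 to -80, and 5.29% of all windows held it. Neither motif occurred in the Npy window or in those of Pdyn, Vip, Cck and Nos1. These matches describe letters and not bound sites. On the same build, RefSeq places the Sst gene at bases 23889573 to 23891342 of chromosome 16, Npy at 49822710 to 49829507 and Tac1 at 7555061 to 7562978 of chromosome 6, and Penk at 4133536 to 4138815 of chromosome 4. The Sst window shown above lies inside these Sst bounds, so its transcript start is not at the outer end of the gene. Cck lies at 121489824 to 121495694 of chromosome 9, where it overlaps Gm38661, and which of them its probe set reads was not examined here.

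The levels fell into 3 kinds of pattern. Sst, Npy, Tac1 and Penk had clearly higher signal in BG than in Ctx. Cck and the brightest probe set of Nos1 were at similar order of signal in all 4 groups. Their group means were 155 to 201 for Cck and, less even, 109 (BG -/-) to 247 (Ctx -/-) for Nos1. Pdyn, Vip and Cort were dim everywhere. Signal of different probe sets is not compared here, since each probe set has its own response.

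**Figure D1:**
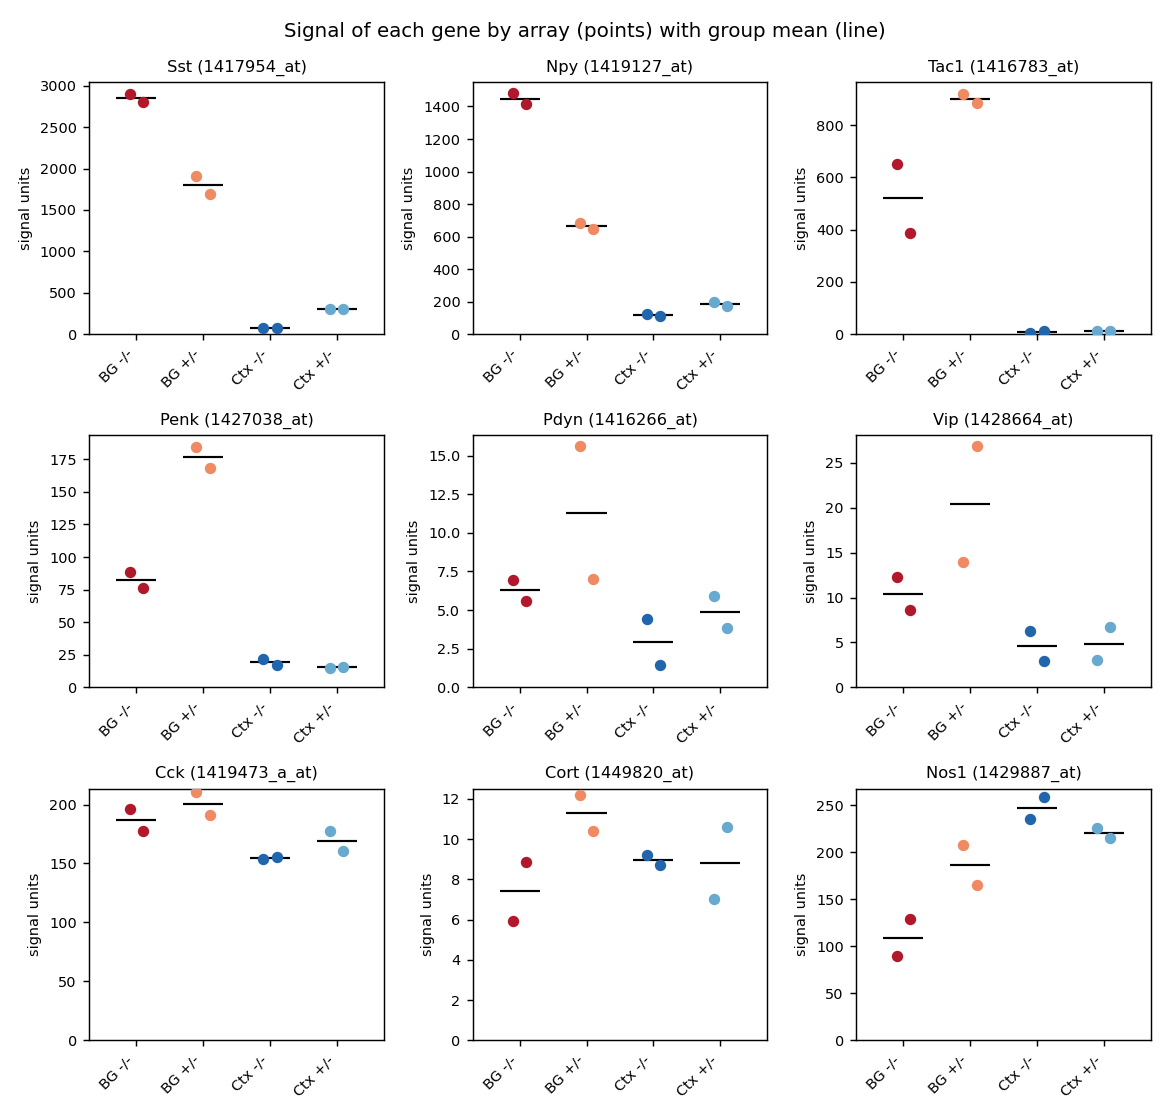
Signal of the brightest probe set of each of the 9 genes, in signal units on a linear axis from 0, for the 2 arrays (points) and the mean (line) of BG -/-, BG +/-, Ctx -/- and Ctx +/-. Sst and Npy are highest in BG -/- and lowest in Ctx -/-, Tac1 and Penk are highest in BG +/-, and Pdyn, Vip and Cort reach at most 26.9 signal units.

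The first comparison asked how the peptide genes differ between genotypes in the basal ganglia. In BG -/-, Sst and Npy rose, while Penk fell. Sst encodes the precursor of somatostatin, an inhibitory peptide. Its probe set (1417954_at) was at 2900 and 2807 signal units in the BG -/- arrays, against 1907 and 1695 in the BG +/- arrays. Both BG -/- arrays lay above both BG +/- arrays. Here and below, such separation of 2 arrays from 2 carries no test, and its share over all probe sets was not counted. The change was 0.66 ± 0.13 on the log2(signal + 16) scale (SE, n = 2 arrays each, limma with Benjamini-Hochberg, adjusted p = 0.0254), a 1.58-fold rise on that scale. Npy encodes a peptide that dampens transmitter release. Its probe set (1419127_at) was at 1480 and 1413 in BG -/-, against 681 and 647 in BG +/-, again without overlap. It rose by 1.11 ± 0.13 on the log2 scale, or 2.15-fold on that scale (limma, adjusted p = 0.00721). In bulk tissue, fewer or more cells of a type and less or more RNA per cell cannot be told apart.

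Penk and Tac1, the enkephalin and substance P precursors of striatal projection neurons, were both lower in BG -/-, and Penk alone of the pair passed the threshold. Penk (1427038_at) was at 88.6 and 75.9 in BG -/-, against 185 and 168 in BG +/-, without overlap. The log2 change was -0.97 ± 0.14 (limma, adjusted p = 0.0121), and the mean signal in BG -/- was 0.466 of that in BG +/-. Tac1 (1416783_at) was at 653 and 387 in BG -/-, against 918 and 884 in BG +/-. The BG -/- arrays lay below the BG +/- arrays but differed widely from each other. The log2 change of -0.82 ± 0.29 (95% interval -1.50 to -0.14) did not pass (limma, adjusted p = 0.121). Its second, dimmer probe set (1431883_at) was at 22.5 and 13.9 in BG -/-, against 27.4 and 30.4 in BG +/-, with a log2 change of -0.40 ± 0.19 that did not pass either (limma, adjusted p = 0.216).

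Cck, the cholecystokinin precursor gene, was at 196 and 178 in BG -/-, against 211 and 191 in BG +/-. These arrays overlapped, and the log2 change of -0.09 ± 0.12 had a 95% interval of -0.39 to 0.20 (limma, adjusted p = 0.666). The brightest probe set of Nos1 (1429887_at) was at 89.6 and 129 in BG -/-, against 208 and 165 in BG +/-. The groups did not overlap, but the log2 change of -0.70 ± 0.19 did not pass (limma, adjusted p = 0.0641). The other 2 tested Nos1 probe sets overlapped between genotypes in BG, with log2 changes of 0.04 ± 0.23 (1438483_at) and -0.08 ± 0.31 (1458626_at) that did not pass (limma, adjusted p = 0.930 and 0.899).

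In all, 3 of the 9 probe sets tested passed in BG, 2 higher and 1 lower in BG -/-. Over all probe sets tested, 9.74% passed in this comparison, and 77.1% of those calls were higher in BG -/-. The median log2 change was -0.09 over the 9 probe sets and 0.01 over all probe sets. The Sst call was lost without any 1 of the 4 BG arrays or of the 2 Ctx -/- arrays (adjusted p = 0.0508 to 0.133), with each array centred on its median (0.0728), with no filter on dim probe sets (0.0512) and in a fit of the 4 BG arrays alone (0.0661). The Npy call was lost without BG -/- replicate 2 or replicate 3 (adjusted p = 0.0640 and 0.0604), and the Penk call without any 1 of the 4 BG arrays (0.0512 to 0.0836).

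Some markers of other cell groups passed in the same comparison, in which 9.74% of all probe sets passed. The lone calls in the choroid plexus list and in the endothelium and pericyte list are near that share. They are no result about those lists. Of 13 striatal projection neuron markers tested, 7 fell in BG -/- and none rose, with a median log2 change of -0.75. Rxrg, Rarb and Foxp1 fell most, with log2 changes of -2.82 ± 0.42, -2.40 ± 0.12 and -1.70 ± 0.14. Their summed signal was 6537 to 6604 in BG -/- and 10702 to 10786 in BG +/-. Of 11 GABAergic interneuron markers, 3 fell and none rose, led by the GABA transporter gene Slc32a1 at -3.22 ± 0.20, and the 12 on the array summed to 5221 to 5257 in BG -/- and 6355 to 6891 in BG +/-. Of 6 markers of diencephalon and hypothalamus tested, 2 rose, and the 8 on the array summed to 924 to 1010 in BG -/- and 493 to 562 in BG +/-. The hypothalamic transcription factor gene Otp was at 440 and 493 in BG -/-, against 218 and 212 in BG +/-. It held the largest part of that sum in each BG array. Lhx9 was at 219 and 215 in BG -/-, against 143 and 136 in BG +/-, and at 184 to 232 in Ctx. Of the others tested, Irx3 (1.32 ± 0.42) and Tcf7l2 (0.71 ± 0.26) were positive and did not pass. Gbx2 (0.03 ± 0.24) and Sim1 (-0.003 ± 0.42) stayed near no change. The 5 red blood cell markers summed to 3118 to 3265 in BG -/- and 5951 to 6256 in BG +/-. Of 4 tested, 1 fell, Hbb-y, which held most of these sums, at 2793 to 2908 in BG -/- and 5476 to 5819 in BG +/-. Of 11 cortical glutamatergic markers, Slc17a6 rose (1.04 ± 0.16) and Fezf2 fell (-0.68 ± 0.13), and the list summed to 3311 to 3523 in BG -/- and 2814 to 2932 in BG +/-. Of 7 choroid plexus markers, Otx2 rose (1.35 ± 0.27), and the 8 on the array summed to 268 to 273 in BG -/- and 224 to 225 in BG +/-. Of 8 endothelium and pericyte markers, Rgs5 rose (0.97 ± 0.12), with sums of 1016 to 1043 in BG -/- and 849 to 923 in BG +/-, and none of 8 microglia markers passed. The part of these cell groups in the changes of Sst, Npy and Penk was not tested.

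**Figure D2:**
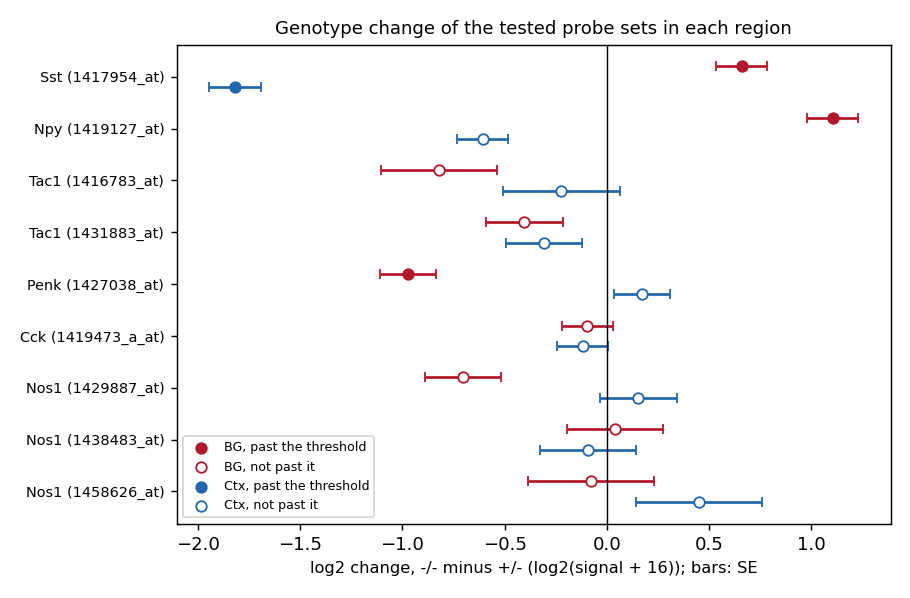
Change between genotypes, -/- minus +/-, on the log2(signal + 16) scale for the 9 probe sets tested, in BG (red) and Ctx (blue), with bars of 1 SE and filled points for probe sets past the threshold. Sst and Npy lie above 0 in BG and below 0 in Ctx, while Penk lies at -0.97 in BG and 0.17 in Ctx.

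In the cortex, the comparison of genotypes left Sst alone of the 9 genes past the threshold. Sst was at 69.4 and 79.4 signal units in the Ctx -/- arrays, against 300 and 306 in the Ctx +/- arrays. The groups lay far apart relative to their spread, at 74.4 ± 7.04 in Ctx -/- and 303 ± 4.24 in Ctx +/- (SD, n = 2 each). The log2 change was -1.82 ± 0.13 (limma, adjusted p = 0.00394), and the mean signal in Ctx -/- was 0.246 of that in Ctx +/-. Npy was also lower in every Ctx -/- array, at 123 and 110, against 197 and 175 in Ctx +/-. Its log2 change of -0.61 ± 0.13 (95% interval -0.90 to -0.31) did not pass over all probe sets (limma, adjusted p = 0.207).

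The striatal peptides were near the bottom of their range in Ctx and did not pass. Penk was at 21.9 and 16.7 in Ctx -/-, against 14.8 and 15.8 in Ctx +/-, without overlap. Its log2 change was 0.17 ± 0.14 (limma, adjusted p = 0.735). Tac1 was at 2.92 and 13.4 in Ctx -/-, against 10.8 and 12.2 in Ctx +/-, with a log2 change of -0.22 ± 0.29 (limma, adjusted p = 0.845). Its dimmer probe set was at 6.42 and 9.83 in Ctx -/-, against 10.2 and 17.8 in Ctx +/-, without overlap and with a log2 change of -0.31 ± 0.19 (limma, adjusted p = 0.651). Cck, which many cortical neurons make, was at 154 and 155 in Ctx -/-, against 177 and 161 in Ctx +/-, also without overlap. Its log2 change of -0.12 had a 95% interval of -0.41 to 0.18, which does not reach the change seen for Sst (limma, adjusted p = 0.804). The 3 tested Nos1 probe sets had log2 changes of 0.15 ± 0.19 (1429887_at), -0.09 ± 0.23 (1438483_at) and 0.45 ± 0.31 (1458626_at). None passed (limma, adjusted p = 0.681 to 0.935), though the arrays of 1429887_at did not overlap between genotypes.

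Thus 1 of the 9 probe sets passed in Ctx, and it was lower in Ctx -/-. Over all probe sets, 0.225% passed, and 21.1% of those calls were higher in Ctx -/-. Both Tac1 probe sets and 1458626_at of Nos1 were at 0.598 to 17.8 in Ctx, with the filter at 16.3 signal units. They were kept through their BG signal, and Penk in Ctx was near the filter. A fall in Ctx could hardly show for these probe sets, so their not passing says little. The Sst call was lost without Ctx +/- replicate 2 or Ctx -/- replicate 2 (adjusted p = 0.0529 and 0.0563) and in a fit of the 4 Ctx arrays alone (0.0729), with log2 changes of -1.41 to -1.97 over all 17 alternatives. With a spread that follows the mean signal (eBayes trend), Npy passed as well (limma, adjusted p = 0.0213).

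Of 11 GABAergic interneuron markers, 6 fell in Ctx -/- and none rose. The 6 were Gad1, Gad2, Slc32a1, Lhx6, Maf and Nxph1, with log2 changes from -1.74 (Gad2) to -3.55 (Gad1). The 12 on the array summed to 4110 to 4154 in Ctx -/- and 4529 to 5226 in Ctx +/-. Reln held the largest part of that sum in each Ctx array, at 2909 and 2916 in Ctx -/-, against 1935 and 2638 in Ctx +/-. It did not pass, so the sum understates the fall of the 6. Gad1, the GABA-synthesising enzyme gene, was at 10.1 and 20.3 in Ctx -/-, against 350 and 338 in Ctx +/-, and Lhx6, a transcription factor gene of Sst interneurons, at 7.19 and 8.95 in Ctx -/-, against 164 and 204 in Ctx +/-. Choroid plexus markers moved too: the 8 summed to 58.0 to 118 in Ctx -/- and 12213 to 14044 in Ctx +/-. Ttr held nearly all of the Ctx +/- sum, at 11634 and 13605. The log2 changes of the 7 tested ran from -9.54 to -1.23, and 2 passed, Ttr and Kcne2. None of 11 cortical glutamatergic markers passed in Ctx. The part of choroid plexus in the Sst change was not tested.

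The third comparison tested whether the change between genotypes itself differed between the regions. Sst and Npy passed, both with a change that was positive in BG and negative in Ctx. Taken as BG minus Ctx, the genotype changes differed by 2.48 ± 0.18 on the log2 scale for Sst (limma, adjusted p = 0.0161) and 1.71 ± 0.18 for Npy (limma, adjusted p = 0.0275). For Penk the difference ran the other way, at -1.14 ± 0.19, and did not pass (limma, adjusted p = 0.0631), although it did with an offset of 64 or with the lowest 50% of probe sets left out (0.0240 and 0.0207). Tac1 was at -0.60 ± 0.40, the brightest Nos1 probe set at -0.86 ± 0.27 and Cck at 0.02 ± 0.18, none of which passed. The remaining probe sets, the dimmer one of Tac1 (-0.10 ± 0.26) and those of Nos1 named 1438483_at (0.13 ± 0.33) and 1458626_at (-0.53 ± 0.44), did not pass either. Of the 9 probe sets, 2 passed and both were positive, beside 0.574% of all probe sets. Over all probe sets that passed this test, 90.1% were positive, so the shared sign is not particular to Sst and Npy. Both calls were lost on leaving out any 1 of the 8 arrays (adjusted p = 0.0626 to 0.150 for Sst and 0.0626 to 0.161 for Npy), while the differences themselves stayed between 2.40 and 2.56 for Sst and between 1.63 and 1.79 for Npy. With no filter the Npy difference was also lost (adjusted p = 0.0694), and with a term for the replicate number in the fit both were. Of 11 GABAergic interneuron markers, 4 passed in the same test, all positive. They were Gad1 (3.14 ± 0.25), Lhx6 (2.74 ± 0.20), Nxph1 (1.88 ± 0.28) and Gad2 (1.40 ± 0.20). Slc32a1 (-1.33 ± 0.28) and Cxcr4 (-1.14 ± 0.20) were negative and did not pass. The part of such cells in the differences of Sst and Npy was not tested.

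Seen from the regions, Sst, Npy, Tac1 and Penk were higher in BG than in Ctx in both genotypes, and the order of the 4 groups differed between genes. In -/-, Sst averaged 2854 ± 65.3 in BG and 74.4 ± 7.04 in Ctx (SD, n = 2 each), a log2 difference of 4.99 ± 0.13 (limma, adjusted p = 5.56e-05). In +/-, Sst averaged 1801 ± 150 in BG and 303 ± 4.24 in Ctx, a difference of 2.51 ± 0.13 (limma, adjusted p = 0.000251). The ratio of mean signal between the regions was thus 38.4 in -/- and 5.95 in +/-. For Npy this ratio was 12.4 in -/- and 3.57 in +/-, with log2 differences of 3.47 ± 0.13 and 1.75 ± 0.13. The change of these differences with genotype is the same quantity as tested in the third comparison. For both genes the order was BG -/-, BG +/-, Ctx +/- and Ctx -/- from high to low, and no neighbours in it overlapped.

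Tac1 had the widest separation of regions among the 9 genes in +/-. It averaged 901 ± 24.3 in BG +/- and 11.5 ± 0.998 in Ctx +/-, a log2 difference of 5.06 ± 0.29 (limma, adjusted p = 0.000294). In -/- it averaged 520 ± 188 in BG and 8.18 ± 7.43 in Ctx, a difference of 4.46 ± 0.29 (limma, adjusted p = 0.000389). The offset of 16 understates such differences, because the Ctx signals were below it. Its second probe set was higher in BG too, by 0.50 ± 0.19 in -/- and 0.59 ± 0.19 in +/-, and did not pass in either. Penk was higher in BG by 1.48 ± 0.14 in -/- and by 2.62 ± 0.14 in +/- (limma, adjusted p = 0.00131 and 0.000267). From high to low, the groups of both genes ran BG +/-, BG -/- and then Ctx, where the Tac1 arrays of the genotypes overlapped and Penk stayed within 14.8 to 21.9.

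Cck did not pass between the regions, at 0.25 ± 0.12 in -/- and 0.23 ± 0.12 in +/- (limma, adjusted p = 0.203 and 0.224). With arrays centred on their medians the -/- value was -0.03. Counting all 9 probe sets, 5 passed in -/-, 4 higher and 1 lower in BG, beside 17.2% of all probe sets. In +/-, 6 passed, 5 higher and 1 lower in BG, beside 23.8% of all probe sets. The calls of Sst, Npy, Penk and the brighter Tac1 probe set held in both genotypes under each of 16 alternatives, including each array left out.

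**Figure D3:**
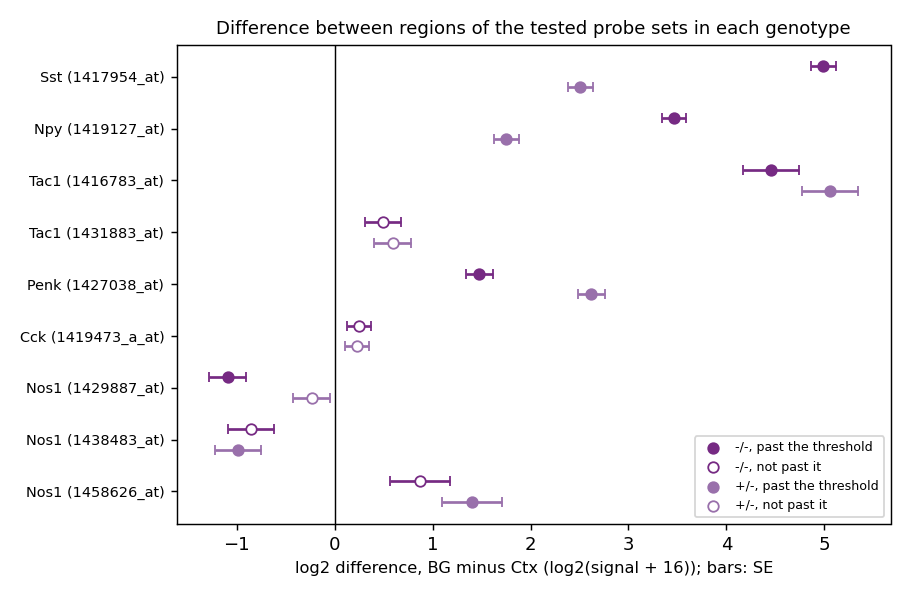
Difference between the regions, BG minus Ctx, on the log2(signal + 16) scale for the 9 probe sets tested, in -/- (dark) and +/- (light), with bars of 1 SE and filled points for probe sets past the threshold. Sst lies at 4.99 in -/- and 2.51 in +/-, and Npy at 3.47 and 1.75, whereas Penk lies at 1.48 in -/- and 2.62 in +/-.

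The 4 probe sets of Nos1 disagreed about the regions. The brightest (1429887_at) had 89.6 and 129 in BG -/-, against 236 and 259 in Ctx -/-, and it was lower in BG by 1.09 ± 0.19 on the log2 scale (limma, adjusted p = 0.0120). In +/- it had 208 and 165 in BG, against 226 and 215 in Ctx, and the difference of -0.23 ± 0.19 did not pass (limma, adjusted p = 0.403). The second (1438483_at) was at 56.8 and 55.8 in BG -/- and 114 and 115 in Ctx -/-. Its difference of -0.85 ± 0.23 narrowly did not pass (limma, adjusted p = 0.0508), and it stayed between -1.14 and -0.57 over 16 alternatives. In +/- it had 68.0 and 42.7 in BG, against 98.2 and 153 in Ctx, lower in BG by 0.98 ± 0.23 (limma, adjusted p = 0.0264). The third (1458626_at) ran the opposite way.

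The probe set 1458626_at was at 51.7 and 37.4 in BG +/-, against 15.0 and 0.598 in Ctx +/-, higher in BG by 1.41 ± 0.31 on the log2 scale (limma, adjusted p = 0.0200). In -/- it had 33.5 and 49.6 in BG, against 17.0 and 13.3 in Ctx, a difference of 0.87 ± 0.31 that did not pass (limma, adjusted p = 0.0957). The remaining one (1422949_at) was too dim to be kept, with 5.16 and 1.87 in BG -/-, against 1.38 and 1.70 in BG +/-. In Ctx it had 28.2 and 15.6 in -/-, against 5.01 and 19.4 in +/-. RefSeq places Nos1 on chromosome 5 at 117866839 to 117958840 (GRCm38.p6), overlapping the genes Gm30360 and Gm26995. Which part and strand of the locus each probe set reads was not examined here. The +/- calls were lost without BG +/- replicate 3 (adjusted p = 0.116 for 1438483_at and 0.0543 for 1458626_at) or Ctx +/- replicate 3 (0.0943 and 0.0526), and that of 1458626_at without BG +/- replicate 2 (0.0956). The brightest lost its -/- call without BG -/- replicate 2 (0.0618), Ctx -/- replicate 2 (0.0553) or Ctx -/- replicate 3 (0.0695).

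**Figure D4:**
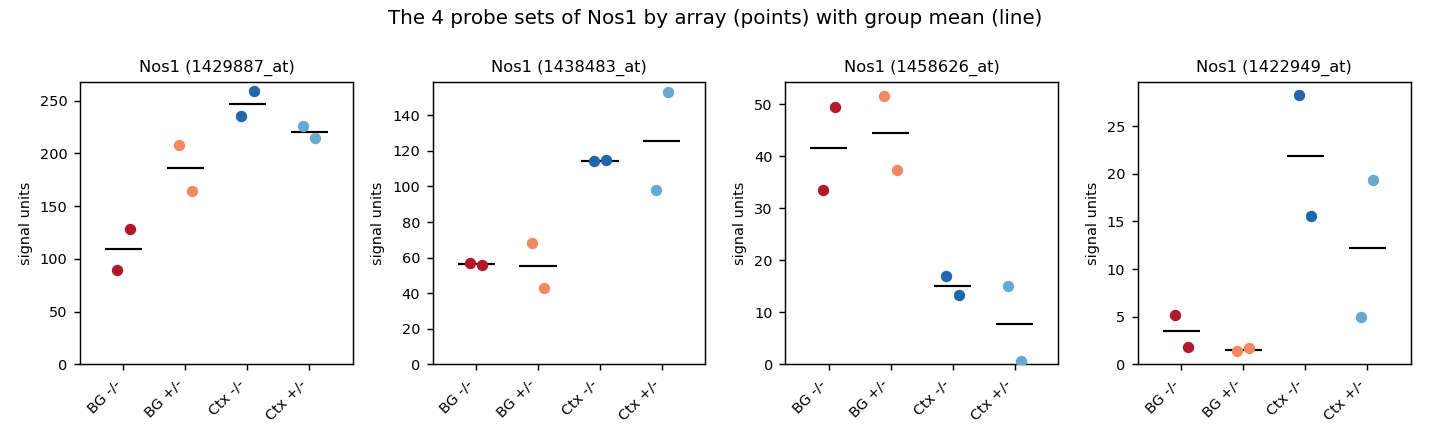
Signal of the 4 probe sets of Nos1, in signal units on linear axes from 0, for the 2 arrays (points) and the mean (line) of each group. In each genotype the mean is lower in BG than in Ctx for 1429887_at, 1438483_at and 1422949_at, and for 1458626_at it is higher in BG, at 33.5 to 51.7, against 0.598 to 17.0 in Ctx.

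Pdyn, Vip and Cort were below the filter, which left out the lowest 30% of probe sets by mean log2 and lay at 16.3 signal units. Their values are therefore given as levels near the low end of the array and not as absence. Pdyn, the dynorphin precursor gene, had 6.97 and 5.57 in BG -/-, against 15.6 and 6.98 in BG +/-. In Ctx it had 4.40 and 1.44 in -/-, against 5.89 and 3.84 in +/-. Vip, which encodes vasoactive intestinal peptide of another interneuron class, was at 12.3 and 8.58 in BG -/-, against 14.0 and 26.9 in BG +/-. In Ctx it had 6.29 and 2.92 in -/-, against 3.02 and 6.68 in +/-, so each BG array lay above each Ctx array. Cort, whose cortistatin peptide resembles somatostatin, had 5.95 and 8.86 in BG -/-, against 12.2 and 10.4 in BG +/-. In Ctx it had 9.23 and 8.73 in -/-, against 7.04 and 10.6 in +/-. In a fit with no filter, none of these 3 genes and not the dim Nos1 probe set passed in any of the 5 comparisons. The lowest adjusted p was 0.0589, for Vip between the regions in +/- (limma, log2 difference of 0.79 ± 0.22).

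Other genes of the peptide pathway were read from 4 lists. Of 19 other neuropeptide genes tested, 3 rose in BG -/- and none fell, and none of the 19 passed in Ctx. The share over all probe sets was 9.74% in BG and 0.225% in Ctx, so these counts set the list apart in neither region. Those that rose were Pmch, Crh and Cartpt, which encode melanin-concentrating hormone, corticotropin-releasing hormone and the CART peptide. Pmch was at 66.1 and 80.6 in BG -/-, against 24.1 and 29.7 in BG +/- (log2 change 1.06 ± 0.22, limma, adjusted p = 0.0311). Crh was at 70.1 and 62.6 in BG -/-, against 21.3 and 37.5 in BG +/- (0.88 ± 0.20, limma, adjusted p = 0.0424). Cartpt was at 51.6 and 41.4 in BG -/-, against 16.5 and 24.3 in BG +/- (0.78 ± 0.15, limma, adjusted p = 0.0266). All 3 are also made in the hypothalamus. The sum of the diencephalon and hypothalamus markers given above, with Otp as its largest part, was also higher in BG -/-. Not all of those markers rose. Other hypothalamic peptide genes of the list ran both ways in BG, and none of those named next passed. Avp was at 1.21 ± 0.46, Pomc at -0.47 ± 0.25, Oxt at -0.28 ± 0.21 and Hcrt at -0.20 ± 0.19. The part of such tissue in the changes of Pmch, Crh and Cartpt was not tested.

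Receptors of these peptides did not pass between genotypes. Of 22 receptor genes, 12 were kept and none of the 12 passed in BG or in Ctx, with log2 changes of -0.79 to 0.47 in BG and -0.60 to 0.65 in Ctx. The same held for 17 genes of peptide processing and dense-core vesicles, with changes of -0.42 to 0.71 in BG and -0.70 to 0.48 in Ctx. Of 12 genes of nitric oxide signalling, 1 passed in BG, which is near the 9.74% of all probe sets and no result about the list. It was Gucy1a1, a subunit of the guanylyl cyclase that nitric oxide activates. Gucy1a1 was at 158 and 202 in BG -/-, against 475 and 529 in BG +/-, and fell by 1.41 ± 0.15 on the log2 scale (limma, adjusted p = 0.00667). In Ctx it had 144 and 142 in -/-, against 233 and 203 in +/-, and no gene of that list passed. No gene of the 4 lists passed in the difference between the regions.

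**Figure D5:**
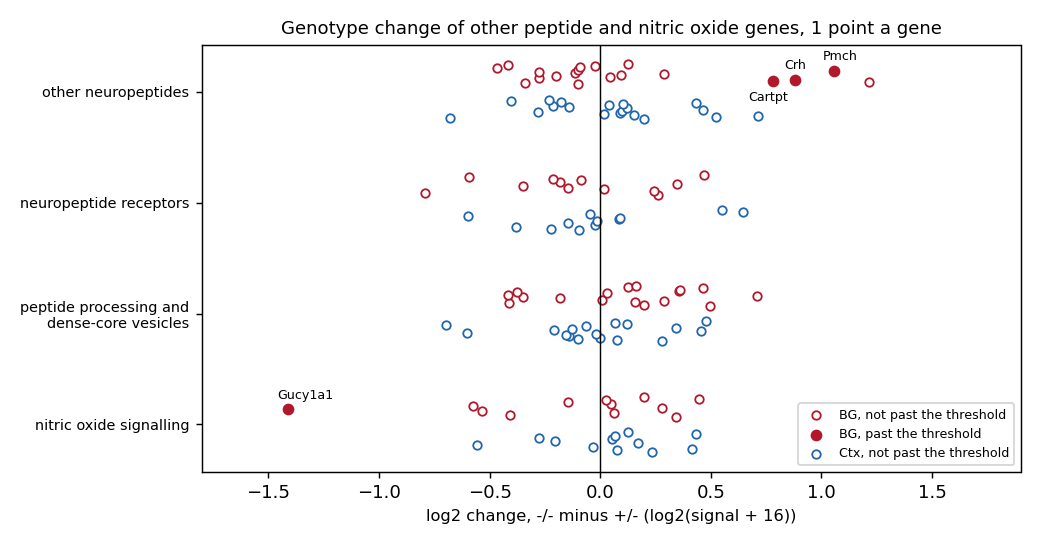
Change between genotypes, -/- minus +/-, on the log2(signal + 16) scale, 1 point a gene, for the genes tested in the 4 lists, in BG (red) and Ctx (blue), with filled points past the threshold. Pmch, Crh and Cartpt lie at 0.78 to 1.06 and Gucy1a1 at -1.41 in BG, and no Ctx point is filled.

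Between the regions, the genes of these lists that passed were mostly higher in BG. Of the 19 other neuropeptide genes, 6 were higher and 1 lower in BG in -/-, and 7 were higher and 1 lower in +/-. Of the 17 processing and vesicle genes, 6 were higher and 1 lower in -/-, and 6 were higher and 2 lower in +/-. Of the 12 receptor genes, 2 were higher and 1 lower in each genotype, and of the 12 nitric oxide genes, 1 was higher and 1 lower in -/-, and 2 were higher and 1 lower in +/-. Over all probe sets, 17.2% passed in -/- and 23.8% in +/-, counting both directions. Of all these calls, 61.8% were higher in BG in -/- and 46.4% in +/-. With each array centred on its median, those shares were 26.5% and 31.6%.

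Nts, the neurotensin precursor gene, had the largest difference of the 19, with 224 and 222 in BG -/-, against 6.09 and 8.33 in Ctx -/-, and 250 and 235 in BG +/-, against 9.69 and 1.69 in Ctx +/-. It was higher in BG by 3.36 ± 0.19 on the log2 scale in -/- and by 3.60 ± 0.19 in +/- (limma, adjusted p = 0.000250 and 0.000267). Vgf, a secreted precursor gene, was higher by 2.43 ± 0.16 in -/- and 2.07 ± 0.16 in +/-, and Pnoc, the nociceptin precursor gene, by 2.18 ± 0.39 in -/- and 2.32 ± 0.39 in +/-. Tac2, which encodes the neurokinin B precursor and is a relative of Tac1, was the 1 lower gene in each genotype, by 2.27 ± 0.14 in -/- and by 2.42 ± 0.14 in +/-, opposite to Tac1. Among receptors, Sstr4 and Oprl1 were higher in BG, and Sstr2 was lower, with 152 and 134 in BG -/-, against 649 and 618 in Ctx -/-, and 202 and 171 in BG +/-, against 583 and 702 in Ctx +/-. Scg2, a dense-core vesicle protein gene, was higher in BG by 2.78 ± 0.23 in -/- and by 2.44 ± 0.23 in +/-. Qpct, the enzyme gene that forms the pyroglutamate end of some peptides, was higher in BG by 2.39 ± 0.13 in -/- and by 1.33 ± 0.13 in +/-. The genes named here passed in both genotypes (limma) and were picked out after their values were seen.

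The genes whose pattern was most like that of a member were found by Pearson correlation of log2(signal + 16) over the 8 arrays, which describes shared group differences between regions and genotypes and carries no test. For Sst they were Qpct, Shroom2 and Aldh1l1, at r = 0.996, 0.994 and 0.993. The means of Qpct were 96.4 for BG -/- and 71.4 for BG +/-, with 5.49 for Ctx -/- and 18.7 for Ctx +/-, which is the order of the groups seen for Sst. For Npy they were Fam81a, Grm5 and Bnip5, at 0.996, 0.994 and 0.994, and the means of Grm5, a glutamate receptor gene, were 279 for BG -/- and 194 for BG +/-, with 74.8 for Ctx -/- and 109 for Ctx +/-. For Tac1 they were Psmb10, Adcy2 and Gkn3, at 0.996, 0.995 and 0.995. For Penk they were Prim1, Eef1e1 and Kcnh1, at 0.996, 0.995 and 0.992. For Cck they were Klhdc8b, Gprin1 and Aldh2, at 0.981, 0.980 and 0.978, and for Nos1 they were Serp1, H2aw and Zfp647, at 0.984, 0.983 and 0.980. Among the members themselves, Sst and Npy correlated at 0.971 and Tac1 and Penk at 0.968. Pairs of Sst or Npy with Tac1 or Penk were also high, at 0.796 to 0.925. Cck correlated with Sst, Npy, Tac1 and Penk at 0.782 to 0.883. In contrast, 1429887_at of Nos1 correlated negatively with each of the other 5 genes, at -0.89 to -0.53. That sign holds for this probe set alone, since 1458626_at ran the opposite way between the regions and was not correlated.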

How the data were processed

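The authors deposited a linear intensity for each of 45101 probe sets on each of 8 arrays, already summarised over the probes of a set. The mean of each array trimmed by 2% at each end was 150.0, as arrays scaled to a common target give. The software is not given in the sources used here, and no detection calls were used. Groups and replicate numbers came from the titles. Arrays of a group correlated at 0.973 to 0.982 and arrays of different groups at 0.930 to 0.977 (Pearson, log2 scale, across probe sets).

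After 64 control probe sets were left out, log2(signal + 16) was fitted with 4 group means in limma 3.58.1 (R 4.3.3, lmFit and eBayes). The lowest 30% of probe sets by mean log2 were left out, which kept 31526. Two-sided moderated tests were adjusted by Benjamini-Hochberg over these, with a threshold of 0.05, and 4 residual plus 2.76 prior degrees of freedom. The fit was checked on arrays made with known changes. The number of arrays limits the precision.

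Genes take their names from the platform annotation and are represented by their brightest single-gene probe set. Of 178 listed symbols, 160 were on the array. Of the pathway lists, genes past the threshold between genotypes or in the difference of regions are named, and of the marker lists the largest changes, with a few others chosen after their values were seen. The members and lists were chosen with earlier results of these data known. Same-numbered arrays did not deviate together (r of -0.03 to 0.02 between groups), so the numbers were not taken as pairs. Alternatives were other offsets, filters, normalizations, variance models and left-out arrays.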

Additional observations from a re-analysis of the deposited data

Results flagged for a closer look

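Sst and Npy are singled out because their change between genotypes differed between the regions by a test of the difference itself. Taken as BG minus Ctx, the genotype changes differed by 2.48 on the log2 scale for Sst and by 1.71 for Npy (limma, adjusted p = 0.0161 and 0.0275). Both genes rose in BG -/-, and both were lower in Ctx -/- than in Ctx +/-, where Sst passed and Npy did not. Groups of 2 arrays are too small to look for an array that stands apart. No explanation was tested.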

How the results depend on the processing

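With 2 arrays a group, counts of calls moved widely while the directions of the called genes held. Of the 9 probe sets, 3 passed in BG, and 5 with an offset of 64 or with the eBayes trend, which added the brightest probe sets of Tac1 and Nos1. In Ctx 1 passed, against 2 with the trend and 0 in a fit of the region alone. For the difference between regions 2 passed, against 3 with an offset of 64 or with the lowest 50% left out, which added Penk (adjusted p = 0.0240 and 0.0207), 1 with no filter and 0 with the replicate block. Leaving out each array, which leaves a lone array assumed to vary like the other groups, gave 0 to 3 in BG, 0 to 1 in Ctx, 0 for the difference, 4 to 6 between regions in +/- and 4 to 7 in -/-. Over all probe sets in BG, 3070 passed, against 4969 with an offset of 64, 1761 with no filter, 4786 with the lowest 50% left out, 2001 with median centring, 5889 with the trend, 2002 with the replicate block, 1024 in the region alone and 113 to 3415 on leaving out each array. In Ctx 71 passed, against 146 with an offset of 64, 112 with the lowest 50% left out, 212 with the trend, 36 with the block, 24 in the region alone and 19 to 39 on leaving out each array. For the difference 181 passed, against 78 with an offset of 4, 907 with 64, 10 with no filter, 1033 with the lowest 50% left out, 53 with median centring, 1816 with the trend, 4 with the block and 3 to 4 on leaving out each array. Between regions 7518 passed in +/- (3898 to 6948 on leaving out each array) and 5438 in -/- (1896 to 6592). The replicate block ended the BG call of Sst (adjusted p = 0.0501) and the differences of Sst and Npy (0.0770 each), and no other call of the 9 probe sets.

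Median centring moved the median of all log2 changes by -0.10 in BG, -0.16 for the difference, -0.12 between regions in +/- and -0.28 in -/-. The share of higher calls was 67.9% instead of 90.1% for the difference, 31.6% instead of 46.4% in +/- and 26.5% instead of 61.8% in -/- (50.6% with quantile normalization). Directions turned only for values that had not passed. With median centring and quantile normalization, Nos1 (1438483_at) had -0.057 and -0.070 in BG, and -0.031 and -0.016 for the difference. Cck had -0.14 and -0.045 for the difference, and -0.034 between regions in -/- with centring. On leaving out each array, Nos1 (1438483_at) ranged over -0.22 to 0.30 in BG, -0.37 to 0.19 in Ctx and -0.15 to 0.41 for the difference, and Nos1 (1458626_at) over -0.28 to 0.13 in BG. Tac1 (1416783_at) ranged over -0.54 to 0.10 in Ctx, Tac1 (1431883_at) over -0.28 to 0.087 and Cck over -0.043 to 0.088 for the difference. The cause of these turns was not tested. Signals below 16 are understated in differences.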
